A study of Mus musculus with 21 samples.

Results

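Cell division genes and crypt stem cell genes were followed in Paneth cells sorted from the mouse small intestine. The set held 49 listed genes. Of these, 18 act in S phase, 21 in mitosis, 3 at entry into the cycle from G1, and 7 mark crypt stem cells or belong to Wnt signalling. All 49 were found among the 55414 gene identifiers of the counts table. Each of the 49 reached 10 or more counts in 3 or more libraries, as did 13271 genes in all. The rule named the genes by their known roles and set no threshold on a difference between groups.

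The data comprised 21 bulk RNA-seq libraries. C57BL/6J mice, the strain named in the study's methods, drank either Milli-Q (purified) water or a ZnSO4 solution, labelled 200 mM, over 7 weeks. Each water was given to germ-free mice, to mice with a specific pathogen free (SPF) flora and to a set of SPF mice that also received antibiotics of broad spectrum during the final 3 weeks. SPF mice gave 3 libraries on each water, antibiotics-treated mice gave 4 on each water, and germ-free mice gave 3 on Milli-Q water and 4 on zinc water. Paneth cells were collected by FACS, and the sorted fraction was sequenced in bulk with a stranded mRNA kit. The study describes its sorted samples as taken from individual mice, while the labels of these libraries do not tie each one to a mouse, so the p-values measure the spread between the libraries.

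Paneth cells are post-mitotic secretory cells at the base of the small intestinal crypts, where they sit between Lgr5-positive stem cells. The stem cells divide under Wnt signals, part of which comes from Paneth cells, and their daughters divide further in the transit-amplifying zone above. A dividing cell makes the replication enzymes at the G1/S transition and the mitotic kinases, kinesins and centromere proteins in G2 and M. Transcripts of both phases in a sorted Paneth fraction can come from cells of other kinds that passed the gates or from the sorted cells themselves, and bulk RNA cannot tell fewer cells of a type from less RNA per cell.

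Library totals ran from 9888174 to 16896714 counts. Antimicrobial α-defensin (Defa) genes took 24.15 to 36.45% of the counts in SPF and antibiotics libraries and 39.38 to 44.52% in germ-free libraries. TMM factors, which scale the libraries to each other over most genes, ran from 0.9962 to 1.49 in the former and from 0.523 to 0.8342 in the latter. The library labelled SPF zinc replicate 1 held 6228 counts of Xist, the RNA of the inactive X chromosome of female cells, against 0 to 34 in the other 20 libraries. Counts of calls that rest on that library are given with and without it. Levels below are CPM, counts scaled to a common library size with TMM factors, unless they are called TPM, which are also divided by transcript length. Fold changes are log2 values from edgeR's quasi-likelihood test with Benjamini-Hochberg adjustment over all 13271 genes, and a gene was called at an adjusted p under 0.05.

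Promoter sequences show a feature that the choice of genes did not use. RefSeq promoters of GRCm38.p6, from 250 bases before to 50 bases after the start, were found for 36 of the 49 genes. The files use mm39, so the coordinates here belong to the promoter table alone. The first pair below are Kif11 (chr19:37376132-37376431, plus strand) and Mki67 (chr7:135716330-135716629, minus strand), both mitotic. The second pair are Rrm2 (chr12:24708004-24708303, plus strand) and Pcna (chr2:132253131-132253430, minus strand), both of S phase. Rnf43 (chr11:87662837-87663136, plus strand, the first of 2 listed starts) stands for the Wnt genes. Kif11, Rrm2 and Rnf43 are shown as the called genes of their lists with the lowest adjusted p in any comparison described further on. Mki67 and Pcna were set to be shown whatever their values. Capitals mark the CCAAT box and the cell cycle homology region (CHR) on either strand.
Kif11: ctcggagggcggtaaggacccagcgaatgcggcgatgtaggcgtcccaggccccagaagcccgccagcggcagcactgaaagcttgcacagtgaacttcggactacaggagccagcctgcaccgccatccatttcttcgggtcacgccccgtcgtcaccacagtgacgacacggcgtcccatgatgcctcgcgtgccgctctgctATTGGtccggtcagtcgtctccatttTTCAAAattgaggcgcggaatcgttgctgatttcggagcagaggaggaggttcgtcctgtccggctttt
Mki67: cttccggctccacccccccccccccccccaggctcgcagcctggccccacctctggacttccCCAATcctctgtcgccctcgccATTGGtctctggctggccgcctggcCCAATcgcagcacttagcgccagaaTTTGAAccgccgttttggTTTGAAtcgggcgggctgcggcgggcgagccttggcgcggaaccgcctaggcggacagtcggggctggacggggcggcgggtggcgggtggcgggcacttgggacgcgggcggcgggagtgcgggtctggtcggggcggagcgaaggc
Rrm2: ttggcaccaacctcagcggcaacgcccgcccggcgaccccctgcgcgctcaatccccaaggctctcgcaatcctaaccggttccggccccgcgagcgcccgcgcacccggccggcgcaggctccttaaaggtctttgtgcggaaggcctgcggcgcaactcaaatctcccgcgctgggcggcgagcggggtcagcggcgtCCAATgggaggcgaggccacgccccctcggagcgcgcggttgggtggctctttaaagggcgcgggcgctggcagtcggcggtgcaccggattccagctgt
Pcna: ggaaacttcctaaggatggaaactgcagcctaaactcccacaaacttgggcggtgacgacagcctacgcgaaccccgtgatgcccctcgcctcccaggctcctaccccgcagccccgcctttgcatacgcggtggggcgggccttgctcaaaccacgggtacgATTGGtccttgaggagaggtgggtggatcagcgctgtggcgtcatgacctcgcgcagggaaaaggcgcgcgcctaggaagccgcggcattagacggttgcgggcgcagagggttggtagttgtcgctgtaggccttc
Rnf43: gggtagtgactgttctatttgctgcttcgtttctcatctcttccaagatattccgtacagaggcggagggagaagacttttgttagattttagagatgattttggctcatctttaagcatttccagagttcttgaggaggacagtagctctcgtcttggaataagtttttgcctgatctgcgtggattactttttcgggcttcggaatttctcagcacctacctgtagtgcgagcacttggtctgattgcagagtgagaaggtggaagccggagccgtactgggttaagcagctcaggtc
The search covered both strands for CCAAT, for the CHR as TTTGAA or TTCGAA, for an E2F site read as TTT followed by 2 bases that are each C or G and then CGC, and for a TCF/LEF site as CTTTGAT or CTTTGTT. None of these motifs holds another whole. In the Kif11 promoter a CCAAT box stood at -45 and a CHR at -19 from the start, and Mki67 held CCAAT boxes at -188, -166 and -141 with CHRs at -116 and -98. Rrm2 held a CCAAT box at -50 and Pcna at -87, neither with a CHR, while the Rnf43 window held no match. CHR and CCAAT stood together in 14 of 17 mitosis promoters (82.4%), in 2 of 15 S phase promoters (13.3%) and in 9.65% of 27025 genes with a promoter. E2F letters stood in 8 of 15 S phase promoters (53.3%), in 1 of 17 mitosis promoters (5.88%) and in 2.6% of all genes. TCF/LEF letters were in 0 of 4 stem and Wnt promoters and in 10.6% of all genes. A match describes letters only, and these counts were not tested.

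The sorted cells carried the Paneth label's defining transcripts at very high levels. The 10 Paneth marker genes summed to group means of 590001 to 684532 TPM, and all 10 were counted in every library. Lyz1, which encodes lysozyme, had a median of 88730 TPM. Against this, Olfm4, a secreted glycoprotein of crypt base stem cells, was the highest of the 49 with a median of 1104 TPM, and the next were Pcna at 50.5, Smoc2 at 35.5, Top2a at 26.7 and Myc at 26.4 TPM. Lgr5, the R-spondin receptor that defines crypt stem cells, had a median of 16.5 TPM and ranged from 4.38 to 24.3 TPM over the libraries. Mki67, the Ki-67 antigen of cycling cells, had a median of 12.9 TPM, and the lowest member was Ccne2, cyclin E2, at 1.47 TPM. All 49 members were counted in every library. In GRCm39, whole genes span chr12:24757811-24764145 for Rrm2, chr2:132091082-132095234 for Pcna, chr19:37364799-37410307 for Kif11, chr7:135291513-135318299 for Mki67, chr10:115286216-115423685 for Lgr5 and chr14:80221521-80260579 for Olfm4, and each count covers a gene as a whole.

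Markers of other crypt and villus cells were present at a range of levels. The 8 goblet genes summed to group means of 12724 to 19294 TPM, the 10 enteroendocrine genes to 1799 to 2443, the 10 enterocyte genes to 200 to 782 and the 8 tuft genes to 23.8 to 139 TPM. The 9 immune genes summed to 1.62 to 4.31 TPM and the 8 stromal genes to 0.11 to 0.864 TPM, with the stromal genes Col1a2, Col3a1 and Cdh5 at 0 in every library. The 24 other stem and Wnt genes were each counted in every library, so transcripts typical of the stem cell niche were more widely present than those of blood or connective tissue.

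**Figure D1:**
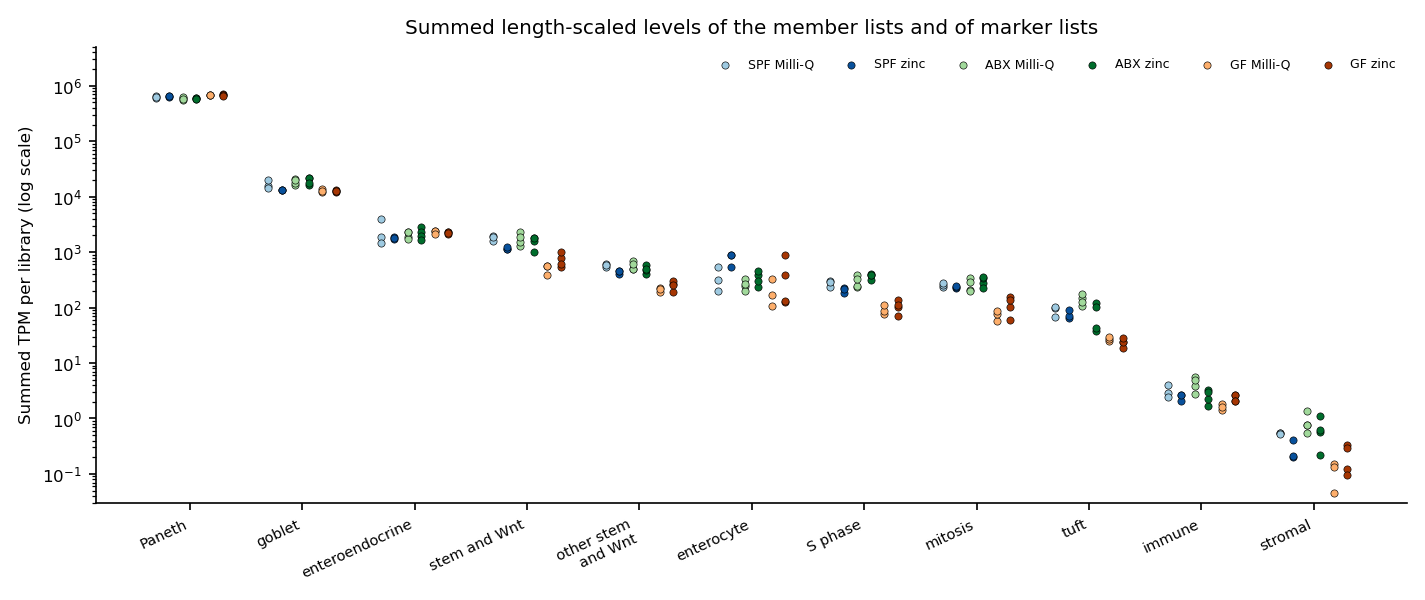
Summed TPM per library on a log axis for the Paneth markers, the S phase, mitosis, and stem and Wnt members, and the marker lists of other cell types, coloured by group. Paneth markers lie above all other lists in every library, and the immune and stromal lists lie lowest.

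Across the 7 comparisons between groups, members were called in 5. Zinc against Milli-Q water called 0 of 49 on the SPF background, 17 with antibiotics and 4 in the germ-free state, where 0.143%, 21.3% and 11.1% of all genes were called. Antibiotics against SPF called 0 of 49 on Milli-Q water and 10 on zinc water, against 0.203% and 8.82% of all genes. Germ-free against SPF called 21 on Milli-Q water and 8 on zinc water, against 23.7% and 5.73% of all genes. The comparisons share groups, so they are not independent of each other.

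**Figure D2:**
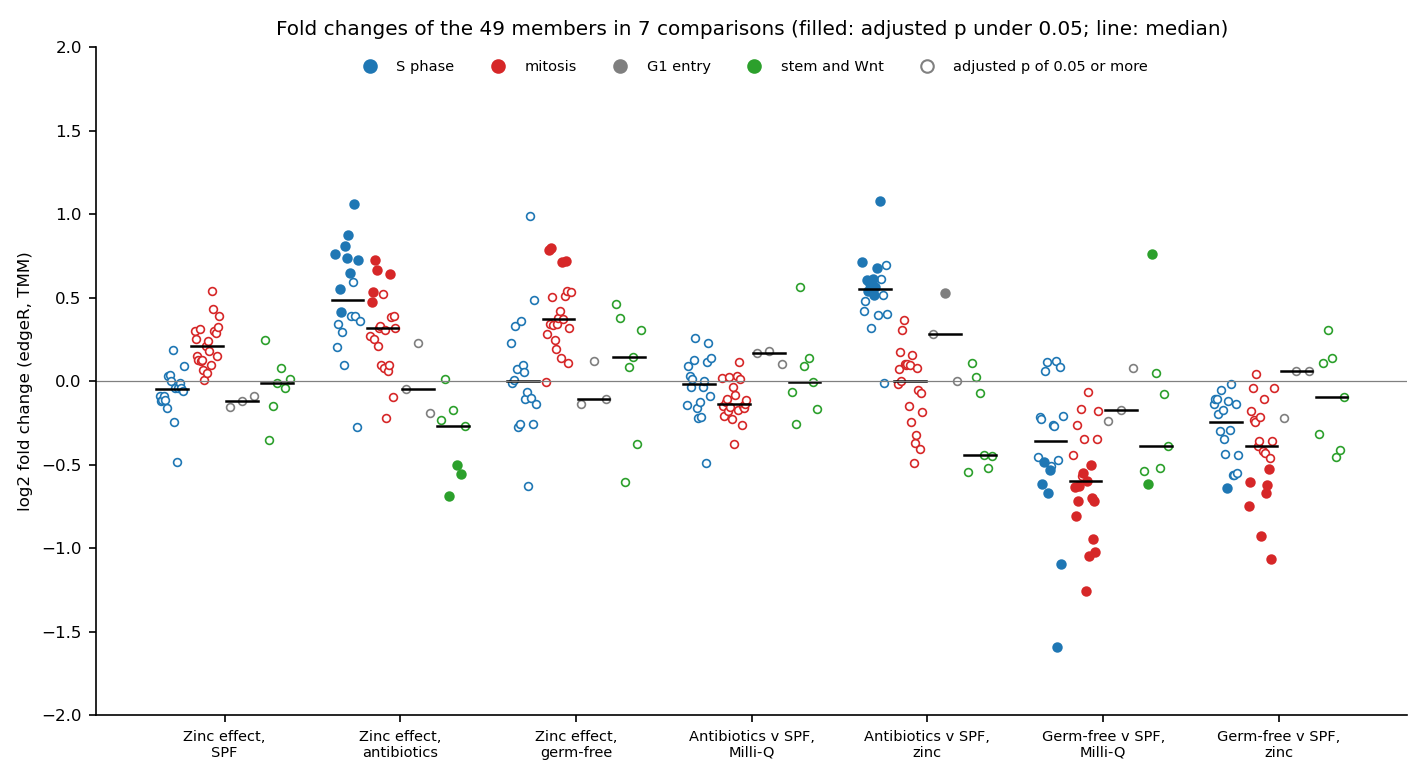
Log2 fold changes of the 49 members in 7 comparisons, with filled points for adjusted p under 0.05, a line at the median of each list, and colours for S phase, mitosis, G1 entry, and stem and Wnt genes. S phase points lie mostly above 0 for zinc after antibiotics (median 0.48) and mitosis points lie below 0 for germ-free mice on Milli-Q water (median -0.60).

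Of the 18 S phase genes, 9 rose and none fell with zinc after antibiotics, against antibiotics alone: Rrm2, Pcna, Rrm1, Gmnn, Tyms, Ccne2, Hells, Mcm4 and Mcm5. The share of all genes called higher in that comparison was 10.1%. Rrm2 encodes the regulated subunit of ribonucleotide reductase, which makes the deoxynucleotides for replication, and Rrm1 its large subunit. Rrm2 stood at 48.1, 34.9, 46.5 and 35.4 CPM on zinc and at 27.2, 17.7, 21.7 and 23.1 CPM on Milli-Q water after antibiotics. The groups did not overlap, and the log2 difference was 0.88 (SE 0.16, adjusted p = 0.00168, edgeR). Rrm1 averaged 90.8 CPM on zinc and 54.5 without it, a log2 difference of 0.74 (SE 0.14, adjusted p = 0.0021, edgeR). Mitochondrial genes took 1.88, 3.68, 3.75 and 3.45% of the counts in the zinc libraries and 2.67, 1.84, 2.01 and 2.16% in the Milli-Q libraries of this comparison, and 15870 to 16558 against 17468 to 18072 genes had a count. Their part in the result was not tested.

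Pcna, the sliding clamp that holds DNA polymerase on its template, stood at 104, 95.2, 124 and 126 CPM on zinc and at 62.9, 54.3, 67.2 and 79.8 CPM on Milli-Q water after antibiotics. Every zinc library was above every Milli-Q library, with a log2 difference of 0.76 (SE 0.15, adjusted p = 0.0021, edgeR). Of the Pcna transcript, 69.8% matched another annotated gene, chiefly the pseudogene Pcna-ps2, so reads could have been divided among copies. Of the Rrm2 transcript 44.6% matched another gene, chiefly Gm59512, which overlaps Rrm2 on the opposite strand. Gmnn, which encodes the licensing inhibitor geminin, averaged 36.0 against 20.5 CPM (log2 difference 0.81, SE 0.17, adjusted p = 0.00322), and Tyms, thymidylate synthase, averaged 49.9 against 31.9 CPM (0.65, SE 0.14, adjusted p = 0.0038). Neither overlapped between the groups.

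Of the replicative helicase genes, Mcm4 and Mcm5 rose and Mcm2 did not pass the test. Mcm5 stood at 82.0, 77.7, 109 and 74.5 CPM on zinc and at 72.4, 57.6, 59.7 and 67.7 CPM without it, a log2 difference of 0.42 (SE 0.14, adjusted p = 0.0322, edgeR). Mcm4 also passed the test, with 49 against 33.4 CPM, while its libraries overlapped. Mcm2 stood at 58.9, 58.6, 78.0 and 56.6 against 62.0, 48.3, 48.8 and 59.2 CPM and was not called (adjusted p = 0.282). Ccne2, which drives the G1/S transition with Cdk2, averaged 12.1 against 5.76 CPM (log2 difference 1.06, SE 0.29, adjusted p = 0.0133), and Hells, a chromatin remodeller of replicating cells, 33.7 against 20.4 CPM (0.72, SE 0.21, adjusted p = 0.017). For Mcm2, Mcm6 and Hells the highest of the 4 zinc libraries was antibiotics zinc replicate 3. The call on Mcm5 was lost when Milli-Q replicate 2 or 3 or zinc replicate 1 or 3 was left out, and those on Ccne2 and Hells without Milli-Q replicate 2 or zinc replicate 3.

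Among 44 further replication genes, 14 rose and none fell in the same comparison, with a median log2 difference of 0.31 over the 44 against 0.01 over all genes tested. They included Pola1, the catalytic subunit of the primase polymerase (0.90), and Rfc4, of the clamp loader (0.73). The 18 members had a median of 0.48, and 17 of them were positive in sign. Without library ABX Milli-Q replicate 2 the members called in this comparison numbered 8 in place of 17. Under library totals alone, without TMM factors, they numbered 6, with 4 higher and 2 lower. That setting called 1454 of 13271 genes, 149 higher and 1305 lower.

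The same genes were set against SPF mice on zinc water, a comparison that shares the antibiotics zinc libraries. There 9 S phase genes rose and none fell, where 4.68% of all genes were called higher. Pcna stood at 66.5, 64.5 and 74.8 CPM in SPF mice on zinc, below all 4 antibiotics zinc libraries (log2 difference 0.71, SE 0.16, adjusted p = 0.0101, edgeR). Tyms averaged 49.9 against 31.2 CPM (0.68, SE 0.15, adjusted p = 0.0105), and Ccne1, cyclin E1, 8.12 against 3.84 CPM (1.08, SE 0.26, adjusted p = 0.0152). Mcm4, Mcm5, Mcm6, Gmnn, Rrm1 and Rrm2 were called with differences of 0.51 to 0.61. Of 49 members, 16 lay wholly higher and 5 wholly lower in the antibiotics libraries, where 14.4% and 13.1% of all genes did. Without SPF zinc replicate 1 these were 17 and 6, where 20% and 19.4% of all genes did.

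This comparison depended on single libraries. Without SPF zinc replicate 1, the library with the Xist counts, 3 members were called in place of 10, all of S phase, where 4.5% of all genes were called. DESeq2 then called 4, beside 1072 genes in all. The count was 0 with SPF zinc replicate 2 left out, 3 with replicate 3 of that group left out, 5 without antibiotics zinc replicate 1, 5 without antibiotics zinc replicate 3 and 6 without antibiotics zinc replicate 4. Markers of other cell types also differed: 8 of 10 enterocyte genes were called lower after antibiotics and 5 of 8 goblet genes higher. Of all 13271 genes 550 were called lower and 621 higher. Without SPF zinc replicate 1 these marker calls numbered 7 and 4, beside 303 of all genes lower and 294 higher. Summed enterocyte markers were 1447 ± 394 CPM (SD, n = 3) in SPF zinc libraries, 533 ± 80.6 (SD, n = 4) in antibiotics zinc libraries and 572 ± 106 (SD, n = 3) in SPF Milli-Q libraries. Their part in the S phase result was not tested.

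For zinc edgeR called 0 of 18 S phase members on the SPF background and 0 in the germ-free state, with 0 and 2 at an unadjusted p under 0.05 and 0 and 1 called by DESeq2. Rrm2 stood at 24.9, 23.0 and 25.5 CPM in the SPF Milli-Q group and at 25.1, 25.9 and 32.5 CPM on zinc. In germ-free mice it stood at 17, 14.2 and 20.2 CPM on Milli-Q water and at 14.7, 19.6, 22.4 and 14.6 CPM on zinc. The waters overlapped in both. Median log2 differences over the 18 genes were -0.05 in SPF mice and 0.00 in germ-free mice.

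**Figure D3:**
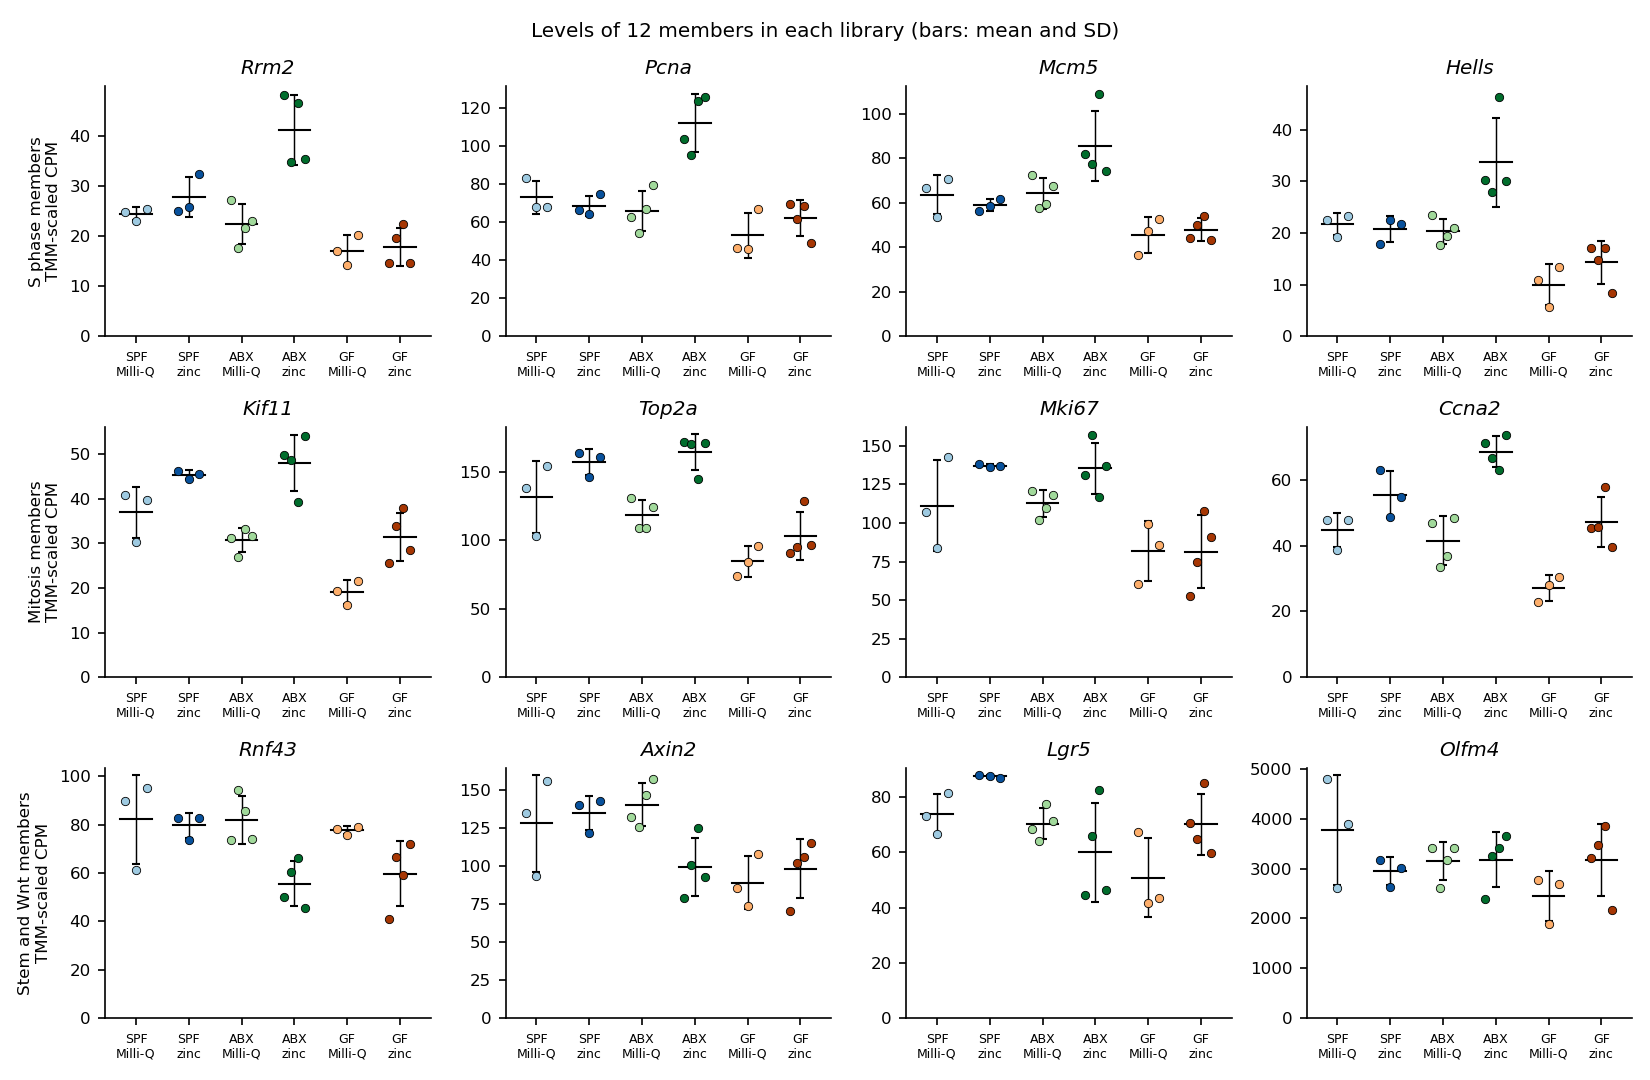
TMM-scaled CPM of 12 members in each library, by group, with the mean and SD as bars and SPF, antibiotics (ABX) and germ-free (GF) mice on Milli-Q or zinc water along the axis. Rrm2 and Pcna are highest in the 4 antibiotics zinc libraries, and Kif11 is lowest in the 3 germ-free Milli-Q libraries.

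In germ-free mice on Milli-Q water, 6 S phase genes fell against SPF mice and none rose, where 11.3% of all genes were called lower. Ccne2 stood at 2.59, 2.07 and 3.32 CPM in germ-free and at 11, 7.40 and 6.14 CPM in SPF libraries (log2 difference -1.59, SE 0.38, adjusted p = 0.00469, edgeR). Hells stood at 10.9, 5.76 and 13.4 against 22.6, 19.2 and 23.2 CPM (-1.09, SE 0.26, adjusted p = 0.00386). Neither gene overlapped between the groups, and both were low-count genes with a wide spread. Gmnn averaged 14.4 against 23.0 CPM (-0.67, SE 0.21, adjusted p = 0.0212), and Mcm5 45.6 against 63.8 CPM (-0.48, SE 0.16, adjusted p = 0.0308). The call on Gmnn was lost in 3 of 6 leave-outs and that on Mcm5 in 4 of 6. On zinc water only Rrm2 fell among S phase genes, at 17.8 against 27.8 CPM (-0.64, SE 0.18, adjusted p = 0.0369, edgeR). That call was lost in 5 of 7 leave-outs. Of the 18 genes, 5 had an unadjusted p under 0.05 and DESeq2 called 2.

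Mitosis genes were lowest, summed, in germ-free mice on Milli-Q water. Of 21, 13 fell against SPF mice and none rose, where 11.3% of all genes were called lower. All 21 were negative in sign, with a median log2 difference of -0.60 against -0.03 over all genes tested. Kif11, the kinesin that pushes spindle poles apart, stood at 19.3, 16.2 and 21.6 CPM in germ-free and at 40.8, 30.3 and 39.6 CPM in SPF libraries. The groups did not overlap, and the difference was -0.95 (SE 0.16, adjusted p = 0.000273, edgeR). Kif23, a kinesin of the central spindle that acts in cytokinesis, stood at 12.7, 13.9 and 17.4 against 32.9, 22.5 and 34.3 CPM (-1.02, SE 0.21, adjusted p = 0.00124).

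Genes of the centromere and of the spindle checkpoint were among those that fell. Cenpa, the histone variant of centromeres, averaged 18.6 CPM in germ-free and 38.5 CPM in SPF libraries (-1.05, SE 0.21, adjusted p = 0.00133, edgeR). Bub1, a kinase of the spindle checkpoint, stood at 3.11, 6.35 and 8.04 against 18.7, 10.6 and 13.1 CPM (-1.26, SE 0.29, adjusted p = 0.00344). Cenpf, a kinetochore protein, averaged 14 against 22.9 CPM and its libraries overlapped (-0.70, SE 0.20, adjusted p = 0.0155). Its call was lost in 3 of 6 leave-outs. Bub1b, Cenpe and Aurkb were called as well.

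Cyclins A2 and B1 and the mitotic kinase fell in the same comparison, while Ccnb2, cyclin B2, was not called (25.6 against 30.7 CPM, with overlap). Ccna2, cyclin A2, averaged 27.1 in germ-free against 44.8 CPM in SPF libraries (-0.72, SE 0.16, adjusted p = 0.00317, edgeR). Ccnb1, cyclin B1, stood at 8.42, 7.53 and 11 against 16.4, 14 and 17.2 CPM (-0.81, SE 0.23, adjusted p = 0.0127), with 49.5% of its transcript shared with other genes such as Ccnb1-ps. Cdk1, the kinase both cyclins activate, stood at 23.1, 28.1 and 34.0 against 56.9, 35.0 and 40 CPM (-0.63, SE 0.20, adjusted p = 0.0292). Top2a, the topoisomerase that untangles sister chromatids, stood at 73.7, 84.2 and 96.2 against 138, 103 and 154 CPM (-0.64, SE 0.16, adjusted p = 0.00542). For each of these genes every germ-free library lay below every SPF library, and the same held for Kif20a (15.6 against 25.8 CPM). Of the Kif20a transcript 65.2% was shared with Cdc23 and Brd8, which overlap it on the opposite strand. The call on Cdk1 was lost without SPF replicate 1 or germ-free replicate 1 or 2, and that on Ccnb1 without germ-free replicate 2. Mki67 was not called, at 60.8, 99.4 and 85.7 against 107, 84.0 and 143 CPM (adjusted p = 0.129).

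Of 44 further mitosis genes, 23 fell and none rose between germ-free and SPF mice on Milli-Q water, beside the 11.3% of all genes called lower. They included Ect2, which acts in cytokinesis (-1.70), Anln, the ring protein anillin (-1.62), and Foxm1, the transcription factor of G2 genes (-1.12). In all, 20 of the 49 members lay wholly lower and 1 wholly higher in germ-free libraries, where 18.6% and 19.0% of all genes did. Without GF Milli-Q replicate 2 the members called in the comparison numbered 10 in place of 21, without GF Milli-Q replicate 1 they numbered 13, and without SPF Milli-Q replicate 3 also 13.

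The germ-free difference depended on the scaling in its extent, while its direction for S phase and mitosis genes was kept. Under library totals alone, the median of all genes moved to -0.99 and 9298 of 13271 genes were called lower. Of the members 48 of 49 were called lower, with mitosis genes at a median of -1.56. The same setting moved the median of all genes to -0.61 for germ-free against SPF mice on zinc water, to -0.15 for zinc after antibiotics and to 0.13 for antibiotics on zinc water. Paneth markers differed in the same comparison: 9 of 10 were called higher and 1 lower, with Defa24 up by 1.45 and Lyz1 by 1.08 on the log2 scale. Of 10 enteroendocrine genes 2 were called higher and 4 lower, of 8 goblet genes 2 and 2, and of 8 tuft genes 0 and 2. The goblet sum was 17241 ± 1175 CPM in germ-free and 9660 ± 1651 CPM in SPF libraries, and the enteroendocrine sum 5016 ± 437 and 2102 ± 817 CPM (SD, n = 3). These directions turned with the scaling. As TPM the goblet sums were 12905 ± 593 and 16511 ± 3178, and the enteroendocrine sums 2309 ± 143 and 2443 ± 1393 (SD, n = 3). On the TMM scale of the CPM sums, the median log2 difference was -0.17 over the goblet and -1.48 over the enteroendocrine genes. In sign 5 of 8 goblet and 8 of 10 enteroendocrine genes were negative, so the higher CPM sums came from a minority of each list. With GC content and length corrected, 12 members were called, all lower, beside 803 of 13271 genes called lower. The part of these cell types' transcripts in the mitosis result was not tested.

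On zinc water 7 mitosis genes fell between germ-free and SPF mice, where 2.35% of all genes were called lower. Kif23 stood at 11.4, 11.6, 19.9 and 19.9 CPM in germ-free and at 32.1, 32.9 and 34.3 CPM in SPF libraries (-1.06, SE 0.19, adjusted p = 0.00473, edgeR). Mki67 stood at 52.4, 74.8, 108 and 90.9 against 138, 136 and 137 CPM (-0.75, SE 0.19, adjusted p = 0.0278), and Top2a at 90.7, 95.4, 129 and 96.5 against 164, 146 and 161 CPM (-0.61, SE 0.14, adjusted p = 0.0166). Neither gene overlapped between the groups. Cenpe, a kinesin of kinetochores, Cenpf, Bub1 and Kif11 were the others. Without SPF zinc replicate 1 the members called numbered 3 in place of 8, of which 2 were mitosis genes, where 4.1% of all genes were called. DESeq2 then called 7, beside 1020 genes in all. The calls on Top2a, Mki67, Kif11 and Bub1 were lost in 5 of 7 leave-outs, and that on Kif23 in none. Those on Cenpf and Cenpe were lost in 6 and 3 of 7. Members called numbered 1 when replicate 2 or replicate 3 of SPF zinc or replicate 2 of GF zinc was left out, and 2 without GF zinc replicate 1.

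With zinc after antibiotics 5 of 21 mitosis genes rose and none fell, where 10.1% of all genes were called higher. Kif11 stood at 49.8, 48.6, 39.3 and 54.0 CPM on zinc and at 31.1, 26.9, 33.2 and 31.6 CPM on Milli-Q water (0.64, SE 0.13, adjusted p = 0.00301, edgeR). Ccna2 averaged 68.5 against 41.5 CPM (0.72, SE 0.14, adjusted p = 0.00201), with 23% of its transcript shared with Exosc9 on the opposite strand, and Top2a stood at 172, 170, 145 and 171 against 131, 109, 109 and 124 CPM (0.47, SE 0.13, adjusted p = 0.0167). These 3 genes did not overlap between the groups. Cdk1 (73.0, 53.6, 46.6 and 73.3 against 37.8, 31.7, 37.0 and 48.7 CPM) and Ccnb1 (23.5, 17.3, 12.9 and 25.8 against 13.3, 12.3, 12.2 and 17 CPM) also rose but overlapped. The call on Ccnb1 was lost in 5 of 8 leave-outs (Milli-Q replicate 1, 2 or 3, zinc replicate 1 or 4), and that on Top2a without Milli-Q replicate 2 or 3. Antibiotics zinc replicate 3 was the lowest of the 4 zinc libraries for each of these 5 genes, although it was the highest for Mcm2, Mcm6 and Hells.

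In germ-free mice 4 mitosis genes rose with zinc and none fell, where 5.76% of all genes were called higher. Ccna2 stood at 45.3, 45.6, 57.8 and 39.7 CPM on zinc and at 22.9, 27.9 and 30.5 CPM without it (0.79, SE 0.16, adjusted p = 0.0101, edgeR). Kif11 stood at 25.5, 33.8, 37.8 and 28.5 against 19.3, 16.2 and 21.6 CPM (0.72, SE 0.16, adjusted p = 0.0121). Every zinc library was above every Milli-Q library for both genes and for Ccnb1 (15.5 against 9.0 CPM, 0.78, SE 0.22, adjusted p = 0.0295), while Cenpa overlapped (30.3 against 18.6 CPM, 0.71, SE 0.21, adjusted p = 0.0309). Among the 44 further mitosis genes 7 rose with zinc and none fell. The calls on Ccnb1 and Cenpa were lost in 4 and 5 of 7 leave-outs. The call count was 0 without GF Milli-Q replicate 2, 2 without GF zinc replicate 2, 2 without GF zinc replicate 3 and 10 without GF zinc replicate 4. It was 0 when only the germ-free groups were fitted, where 5 of 13271 genes were called in all.

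In SPF mice no mitosis member was called with zinc, although all 21 were positive in sign with a median of 0.21 against -0.02 over all genes. Only Cenpe and Cenpf had an unadjusted p under 0.05, and DESeq2 called 0 of the 49. Mki67 stood at 138, 136 and 137 CPM on zinc and at 107, 84.0 and 143 CPM without it, and Top2a at 164, 146 and 161 against 138, 103 and 154 CPM. Both genes overlapped between the waters. Without SPF zinc replicate 1 the count stayed at 0 by both tools, and 20 of 21 mitosis genes were positive in sign. Antibiotics on Milli-Q water likewise called 0 of 49 against SPF mice by edgeR and by DESeq2, with 1 member, Ascl2, at an unadjusted p under 0.05.

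**Figure D4:**
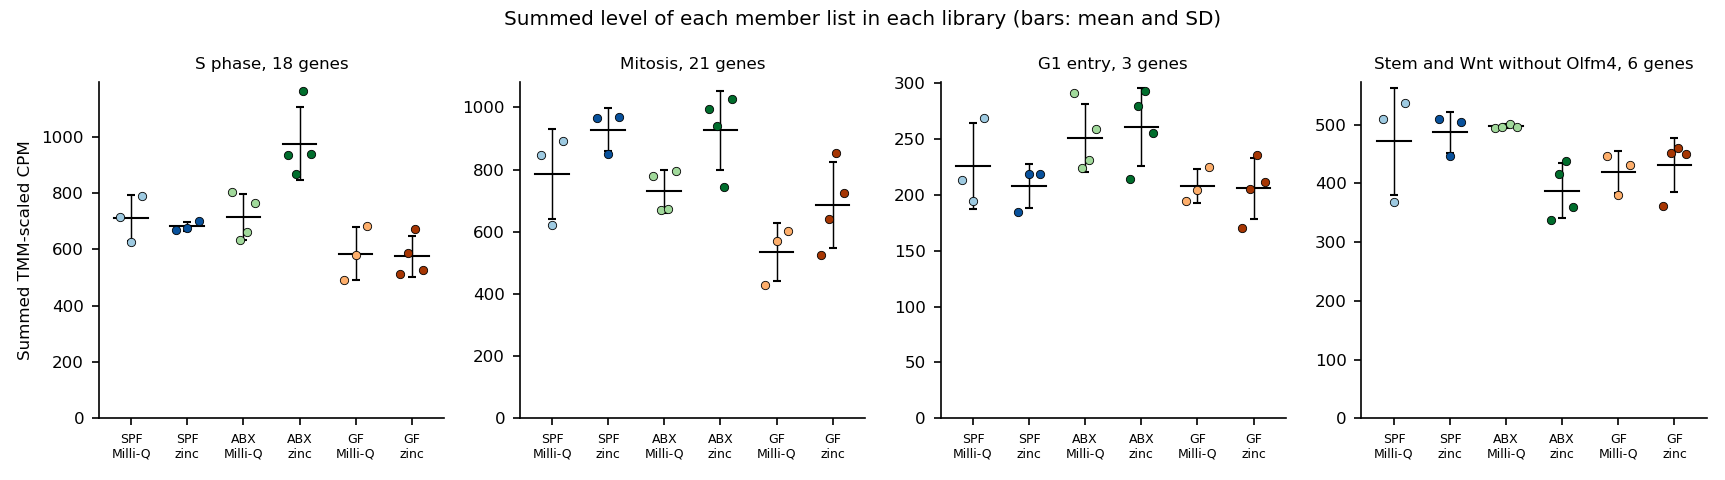
Summed TMM-scaled CPM of the S phase, mitosis, G1 entry, and stem and Wnt members (Olfm4 left out) in each library, by group, with mean and SD. S phase sums are highest in antibiotics zinc libraries (975 ± 129), and mitosis sums are lowest in germ-free Milli-Q libraries (534 ± 93.2).

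Summed over the list, S phase members reached 710 ± 81.2 CPM in SPF Milli-Q, 681 ± 15.2 in SPF zinc, 714 ± 81.2 in antibiotics Milli-Q, 975 ± 129 in antibiotics zinc, 584 ± 94.7 in germ-free Milli-Q and 575 ± 72 in germ-free zinc libraries (SD, n = 3 or 4). Mitosis members reached 786 ± 145, 929 ± 68, 730 ± 68.1, 926 ± 126, 534 ± 93.2 and 687 ± 140 CPM in the same order. The S phase sum was highest in antibiotics zinc libraries, and the mitosis sums of SPF zinc and antibiotics zinc libraries overlapped.

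At entry into the cycle, cyclin D1 and cyclin D2 activate Cdk4 and Cdk6, and Myc drives growth genes downstream of Wnt. Group means of Ccnd1 ran from 49.2 CPM in germ-free zinc to 71.8 CPM in antibiotics Milli-Q libraries, and those of Myc from 57.9 CPM in SPF zinc to 66.2 CPM in antibiotics Milli-Q libraries. Neither was called in any comparison. Ccnd2 stood at 110, 138, 147 and 137 CPM in antibiotics zinc and at 76.7, 107 and 93.4 CPM in SPF zinc libraries, the only call of the 3 genes (0.52, SE 0.16, adjusted p = 0.0468, edgeR). The call was lost in 6 of 7 leave-outs. Of the 8 other genes of G1 entry, 1 rose and 2 fell with zinc after antibiotics, beside 21.3% of all genes called. The 1 that rose was Ccnc (0.78). In germ-free mice Ccnc (0.96) was the only 1 of the 8 called with zinc, beside 11.1% of all genes.

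Inhibitors and pocket proteins, which hold the cycle in check, were called in both directions. With zinc after antibiotics Rb1 (0.51), its relative Rbl1 (0.51) and Lin54 of the DREAM complex (0.96) rose and Ccng2 (-0.63) fell, 4 of 15 tested beside 21.3% of all genes called. Between germ-free and SPF mice on Milli-Q water Cdkn1a, the p53-induced inhibitor p21, rose by 0.78, and 6 fell, with Rbl1 at -1.17 and Cdkn1b, the inhibitor p27, at -0.47, beside 23.7% of all genes called. Cdkn2a was at 0 in every library.

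Stem and Wnt genes held the only members that edgeR called lower with zinc in any of the 3 contexts. With zinc after antibiotics 3 of 7 fell and none rose, where 11.3% of all genes were called lower. Rnf43, a ubiquitin ligase that removes Wnt receptors and is itself a Wnt target, stood at 50.2, 60.5, 66.2 and 45.7 CPM on zinc and at 73.7, 94.2, 85.7 and 74.2 CPM on Milli-Q water (-0.56, SE 0.16, adjusted p = 0.0161, edgeR). Axin2, a Wnt target that restrains β-catenin, stood at 78.9, 101, 125 and 92.9 against 132, 126, 147 and 157 CPM (-0.50, SE 0.17, adjusted p = 0.0383). Ascl2, the transcription factor of crypt stem cells, stood at 16.7, 22.2, 16.9 and 16.4 against 31.1, 36.9, 23.9 and 24.8 CPM (-0.69, SE 0.20, adjusted p = 0.0204). For all 3 every zinc library lay below every Milli-Q library, as it did for 13.5% of all genes. The calls on Rnf43 and Ascl2 were lost when replicate 2 of the Milli-Q group or replicate 1 or 4 of the zinc group was left out, and that on Axin2 in 6 of 8 leave-outs.

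The other 4 genes were not called with zinc after antibiotics. Lgr5 stood at 44.7, 65.9, 82.4 and 46.5 CPM on zinc and at 68.4, 64.1, 77.3 and 71.3 CPM without it (adjusted p = 0.343). Its lowest pair of zinc libraries lay under all Milli-Q libraries and its highest above them. Olfm4 stood at 2395, 3243, 3421 and 3659 against 3419, 2611, 3182 and 3403 CPM. Smoc2, a matricellular protein of stem cells, averaged 141 against 159 CPM (adjusted p = 0.313), and Znrf3, the partner ligase of Rnf43, 13.8 against 16.6 CPM (adjusted p = 0.298).

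Of 24 other stem and Wnt genes, 8 fell and none rose with zinc after antibiotics, where 11.3% of all genes were called lower. They were Sox9, Msi1, Tert, Ephb3, Sp5, Rgmb, Scn2b and Igfbp4, with Msi1, an RNA-binding protein of progenitors, at -1.01 and Sp5, a Wnt target, at -0.73. The calls on Rnf43, Axin2 and Ascl2 moved with base composition. Their transcripts held 56, 55.9 and 59.7% GC against a median of 49.3% over all genes, and across genes the log2 difference of this comparison correlated with GC content (r = -0.298, genes are not independent replicates). With GC content and length corrected, the differences were -0.24 for Rnf43 (adjusted p = 0.208), -0.19 for Axin2 (adjusted p = 0.393) and -0.33 for Ascl2 (adjusted p = 0.194). The correction kept the rise of Rrm2 (0.92), Pcna (0.64), Ccna2 (0.59) and Kif11 (0.48). With it 18 members were called, all higher, beside 1433 of 13271 genes called higher.

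Between germ-free and SPF mice on Milli-Q water, 1 stem gene fell and 1 rose. Olfm4 stood at 2780, 1883 and 2691 CPM in germ-free and at 4798, 2605 and 3890 CPM in SPF libraries, which overlapped (-0.62, SE 0.22, adjusted p = 0.0479, edgeR). Ascl2 stood at 35.5, 32.4 and 32.4 against 15.9, 15.7 and 27.3 CPM, with every germ-free library above every SPF library (0.76, SE 0.24, adjusted p = 0.0233). The share of all genes called higher was 12.4%. Each of these calls was lost in 4 of 6 leave-outs, that on Olfm4 without SPF replicate 1 or 3 or germ-free replicate 2 or 3 and that on Ascl2 without replicate 1 or 2 of either group, and both were lost with GC content and length corrected (adjusted p = 0.171 for Olfm4 and 0.14 for Ascl2). Under library totals alone the sign of Ascl2 turned, to -0.20 (adjusted p = 0.539).

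Lgr5 stood at 67.1, 41.5 and 43.6 CPM in germ-free Milli-Q and at 73.1, 66.6 and 81.3 CPM in SPF Milli-Q libraries, just short of the threshold (adjusted p = 0.0518). It stood at 87.7, 87.5 and 86.8 CPM in SPF zinc and at 70.6, 64.9, 85.0 and 59.7 CPM in germ-free zinc libraries (adjusted p = 0.306). Smoc2 had the smallest ratio of highest to lowest library of the 49, at 1.55, with group means of 141 to 163 CPM, and was called in no comparison, nor was Znrf3. Of the 24 other stem and Wnt genes, 5 fell and 1 rose between germ-free and SPF mice on Milli-Q water, where 11.3% and 12.4% of all genes were called lower and higher, with Cd44, an adhesion receptor of crypt cells, at -1.41 and Nkd1, a Wnt feedback gene, at 1.29. In germ-free mice Bmi1, Slc12a2 and Aqp4 of the 24 rose with zinc and none fell, beside 5.76% of all genes called higher.

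The difference of the zinc effect between contexts was tested directly. By edgeR no member was called for antibiotics minus SPF, germ-free minus SPF or germ-free minus antibiotics, where 0%, 0% and 0.196% of all genes were called. At an unadjusted p under 0.05 there were 14, 3 and 10 members. DESeq2 called 3, 0 and 3: Pcna, Rrm1 and Tyms for antibiotics minus SPF, and Rrm2, Tyms and Cenpa for germ-free minus antibiotics. Of all 13271 genes it called 266, 38 and 334. For Pcna the difference of log2 differences was 0.83 (adjusted p = 0.0293, DESeq2), and for Tyms 0.87 (adjusted p = 0.0245, DESeq2). Median differences over the S phase members were 0.58 for antibiotics minus SPF and -0.45 for germ-free minus antibiotics, against 0.01 and 0.02 over all genes. Without SPF zinc replicate 1 edgeR called 0 for both differences that involve SPF mice. DESeq2 then called 1, Tyms, for antibiotics minus SPF, beside 147 genes in all. With no filter on low counts edgeR called 6 for antibiotics minus SPF (Pcna, Gmnn, Rrm1, Tyms, Ccne2 and Hells) and 2 for germ-free minus antibiotics (Cenpa and Lgr5). Of 24548 genes it then called 675 and 323. Fitted on the compared groups alone edgeR called 3 members for antibiotics minus SPF, beside 242 of 13271 genes. Without GF Milli-Q replicate 1 it called 2 members for germ-free minus antibiotics.

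Library by library, the mitosis genes moved together. After subtraction of group means, pairs of mitosis genes had a median Pearson r of 0.72 over the 21 libraries, pairs of S phase genes 0.49, pairs of stem and Wnt genes 0.45, S phase with mitosis genes 0.27 and mitosis with stem genes 0.21. These are descriptions of libraries that share scaling and depth. Closest to Mki67 were Plk1 (0.867), Aurkb (0.848) and Ube2c (0.834), closest to Pcna was Gmnn (0.814), and closest to Lgr5 were Cdc6 (0.731) and Znrf3 (0.723), all over 21 libraries.

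Carry-over of stem or dividing cells in the sort can be described by how these lists varied together. The summed S phase and mitosis levels correlated over the 21 libraries at r = 0.674 and, within groups, at 0.504, in CPM. Stem and Wnt genes without Olfm4 gave r = -0.05 with S phase genes and 0.158 with mitosis genes, and 0.436 and 0.334 within groups. As summed TPM the same pairs gave 0.887 with S phase and 0.894 with mitosis genes, and 0.776 and 0.749 within groups, so the relation of stem to cycling genes turned on the scaling. In CPM the stem and Wnt genes gave 0.718 with the 24 other stem and Wnt genes, and 0.655 within groups. In CPM the antibiotics zinc libraries held the highest S phase sum of the 6 groups and the lowest stem sum without Olfm4. That stem sum was 388 ± 47.6 CPM (SD, n = 4), against 498 ± 3.48 (SD, n = 4) in antibiotics Milli-Q libraries. As TPM it was 112 ± 22.5 against 159 ± 26, and germ-free Milli-Q libraries were lowest at 52.9 ± 4.85. With Olfm4 it was 3568 ± 576 CPM, and germ-free Milli-Q libraries were again lowest at 2871 ± 529 CPM. The source of this contrast was not tested. In CPM the mitosis sums correlated negatively with goblet markers (r = -0.73 over the libraries and -0.511 within groups). Enteroendocrine markers gave -0.689 and -0.489, and Paneth markers -0.585 and -0.249. Enterocyte and tuft markers gave 0.12 and 0.287 over the libraries. As TPM these relations to markers were not computed. The study describes this sort as highly pure, by a measurement not analysed here. Whether the members' transcripts came from stem or transit-amplifying cells in the sort or from Paneth cells cannot be told apart in bulk RNA.

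The sort antigens moved with the groups as well. Cd24a had a median of 446 TPM and Kit of 21.5 TPM. Cd24a rose between germ-free and SPF mice on Milli-Q water (0.80) and on zinc water (0.72), and Kit rose with zinc in germ-free mice (0.69). The direction of the antigens turned with the scaling: Cd24a and Kit summed to 387 ± 46.3 TPM in germ-free and 584 ± 219 TPM in SPF libraries on Milli-Q water, and to 440 ± 45.7 and 474 ± 27.9 TPM on zinc water (SD, n = 3 or 4). Their part in the germ-free values of the cell cycle genes was not tested.

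**Figure D5:**
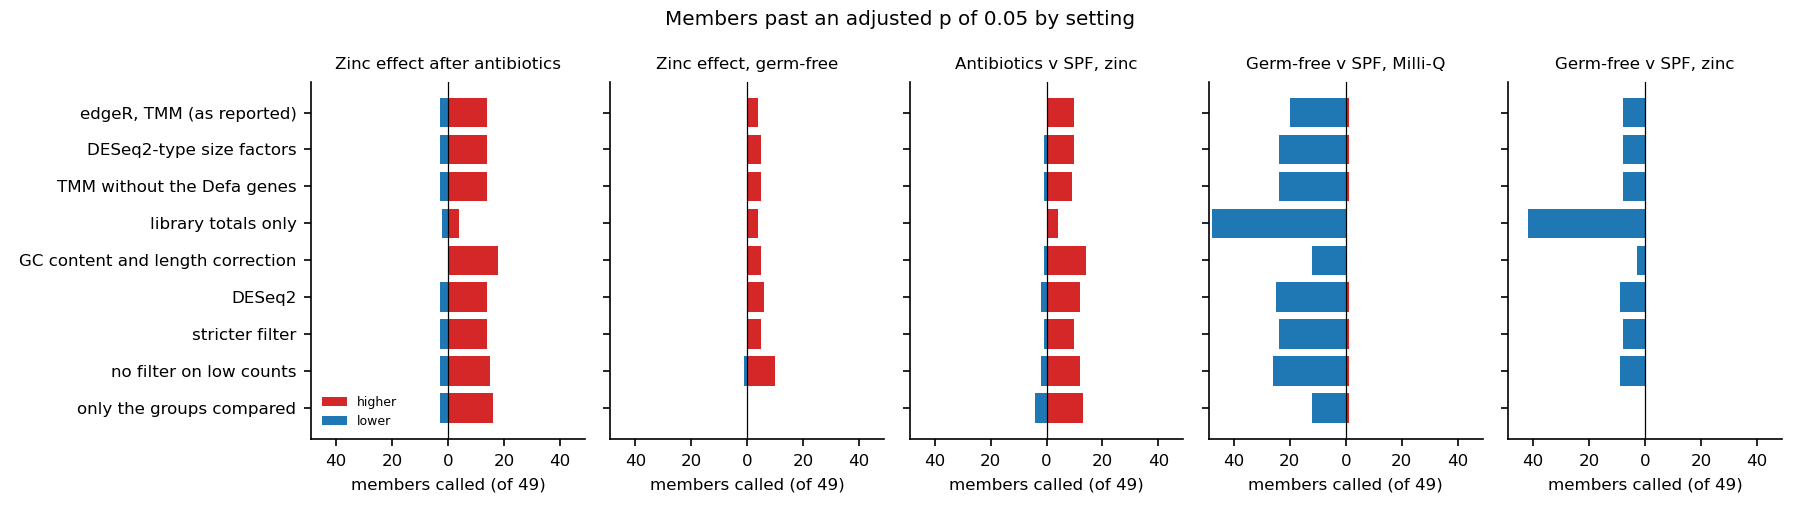
Members called higher (right) and lower (left) of 49, by setting, in the 5 comparisons that called any. Library totals alone call 48 members lower in germ-free Milli-Q libraries, where 9298 of 13271 genes are called lower. The GC and length correction removes the 3 stem gene calls after antibiotics.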

How the data were processed

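RNA of FACS-sorted Paneth cells was sequenced in 21 libraries with a stranded mRNA kit. The authors deposited 1 table of whole-number counts per Ensembl gene, not normalized. The submitters' processing notes name FastQC 0.12.0, STAR 2.7.0a, DESeq2 and mm39, while the read counter, its use of strand and its treatment of reads with several matches are not given in the sources used here. Of 55414 identifiers, 54749 were matched to symbols in GENCODE M39, and the 665 unmatched held 0.0164% of the counts. All columns were matched to samples (0 unmatched).

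Groups came from the labels. Genes with 10 or more counts in 3 or more libraries (13271) were tested with edgeR 4.0.16 (R 4.3.3, quasi-likelihood, TMM factors, 1 coefficient per group over all 21 libraries, common dispersion 0.0371), with Benjamini-Hochberg adjustment over all genes. DESeq2 1.42.0, RLE size factors, library totals, TMM without Defa genes, other filters, fits of the compared groups alone, a replicate block and leaving out each library were alternatives. A correction for GC content and length, and counts without SPF zinc replicate 1 for the marker lists, DESeq2 and overlaps were added after seeing the data. TPM used the longest annotated transcript of protein-coding nuclear genes. Shared sequence means 98% identity over 60 bases (BLAST 2.17.0). Python 3.11.15, numpy 2.4.6, pandas 2.3.3 and matplotlib 3.10.9 drew tables and figures.

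The members and lists were chosen with earlier results of these data known. Named genes were every called member of a comparison, or the 12 with the lowest adjusted p where more than 12 were called, plus Mki67, Top2a, Cdk1, Ccnb1, Pcna, Mcm2, Mcm5, Rrm2, Ccnd1, Ccnd2, Myc and the 7 stem and Wnt members. Further called members, such as Mcm4, are named for completeness after their values were seen. On simulated counts for zinc after antibiotics (13049 genes) the test recovered 66.7% of 2-fold and 87.8% of 4-fold changes, with 4.4% false calls. It recovered 60.6% of 2-fold changes for zinc in SPF mice, with 6.49% false calls. For zinc in germ-free mice these were 57.6% and 5.26%, and for germ-free against SPF mice on Milli-Q water 55.6% and 2.8%. The simulations changed 197 to 199 genes, where the data called 2831 for zinc after antibiotics. Changes under 2-fold were not simulated. Depth was 9888174 to 16896714 counts per library. Libraries sharing a replicate number did not deviate together (r from -0.163 to 0.227), so the numbers were not used as pairs. That check and the replicate block used the replicate numbers of the sample titles. The deposited column names number the germ-free Milli-Q libraries differently, and pairs by those numbers were not checked.

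Some items are not reported here.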

Additional observations from a re-analysis of the deposited data

Results flagged for a closer look

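Among groups of 4 libraries, 7 of 117 tested sets of values had 1 library far from the other 3, where chance gives about 1 in 20. In antibiotics zinc replicate 3, Top2a was low at 145 CPM (others 172, 170 and 171), while Mcm2 at 78.0 (others 58.9, 58.6 and 56.6), Hells at 46.4 (others 30.2, 27.9 and 30.1) and Mcm6 at 141 CPM (others 96.6, 99.4 and 100) were high. In antibiotics zinc replicate 2, Ascl2 was high at 22.2 CPM (others 16.7, 16.9 and 16.4). In germ-free zinc replicate 3, Top2a was high at 129 CPM (others 90.7, 95.4 and 96.5). The stem and Wnt sum without Olfm4 was low in germ-free zinc replicate 1, at 362 CPM (others 452, 460 and 450), the library of lowest depth. The causes were not tested.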

How the results depend on the processing

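Of 54 fold changes of called, named members, DESeq2, RLE size factors, no filter and a stricter filter kept the direction and call of 54, TMM without Defa genes of 53, the GC and length correction of 35, library totals of 37 and fits of the compared groups alone of 38. Ascl2 between germ-free and SPF mice on Milli-Q water reversed under library totals (-0.20). Members called under library totals numbered 6 for zinc after antibiotics, 4 for antibiotics on zinc water, and 48 and 42 for germ-free against SPF mice on Milli-Q and zinc water. Of all 13271 genes 1454, 601, 9372 and 6315 were called, in the same order. The GC and length correction gave 12 and 3 members for germ-free mice on Milli-Q and zinc water, beside 2650 and 1278 of all genes. Fits of the compared groups alone gave 0 for zinc in germ-free mice, 17 for antibiotics on zinc water, 13 and 0 for germ-free mice on Milli-Q and zinc water and 3 for the zinc difference of antibiotics minus SPF. In the same order those fits called 5, 2041, 2298, 14 and 242 of all 13271 genes. With no filter zinc in germ-free mice gave 11, and the zinc differences of antibiotics minus SPF and germ-free minus antibiotics gave 6 and 2, where DESeq2 gave 3 and 3. Of 24548 genes the fits with no filter called 1906, 675 and 323, and for the 2 differences DESeq2 called 266 and 334 of 13271. The cause was not tested. Leaving out 1 library gave 0 to 0 for zinc in SPF mice, 8 to 18 after antibiotics, 0 to 10 in germ-free mice, 0 to 0 and 0 to 9 for antibiotics on Milli-Q and zinc water, 10 to 24 and 1 to 7 for germ-free mice on Milli-Q and zinc water, and 0 to 0, 0 to 0 and 0 to 2 for the zinc differences of antibiotics minus SPF, germ-free minus SPF and germ-free minus antibiotics. With the replicate block the counts were 0, 18, 3, 0, 8, 24, 7, 0, 0 and 0 in that order. Every SPF and germ-free group had 3 or 4 libraries, and Ccne2, Ccne1 and Bub1 lay near or under 20 CPM, which limits their precision.

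Log2 ratios of summed TPM against SPF Milli-Q libraries moved with the unit. For S phase genes they were -0.40 in SPF zinc, -1.59 in germ-free Milli-Q and -1.38 in germ-free zinc libraries as TPM, -0.06, -0.28 and -0.30 as CPM, and -0.18, -1.08 and -0.95 as TPM without Defa genes. For mitosis genes the values were -0.12, -1.79 and -1.16, then 0.24, -0.56 and -0.19 as CPM, and 0.09 and -1.29 without Defa genes in the first pair of groups. For stem and Wnt genes they were -0.64, -1.84 and -1.32, then -0.30, -0.56 and -0.23 as CPM, and -0.43, -1.34 and -0.89 without Defa genes.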
